A study of Homo sapiens with 4 samples.

Results

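Genes of megakaryocytes and platelets were followed in THP-1 monocytic cells kept with platelet-like particles, to look for RNA that the particles might bring into the culture. The list names 31 genes, taken with every probe set that names the gene alone, and 30 of them had 61 such probe sets among the 41091 probe sets and 19775 genes with a single name on the array. A probe set is a group of short probes that reads part of a transcript. GP1BB was the member without a value, because its probe sets name neighbouring genes as well. THP-1 is an established human line from an acute monocytic leukaemia, and every array held RNA of this line.

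The study had 4 arrays in 4 conditions, 1 array each: untreated resting cells, cells activated with Pam3CSK4, and cells that had received Pam3CSK4 and platelet-like particles for 12 h or 24 h. Pam3CSK4 mimics a bacterial lipoprotein and is sensed by TLR2 together with TLR1. The labels do not name the cells that shed the particles, say how long the Pam3CSK4 array was treated, or say whether particles were washed off before RNA was extracted. RNA inside the monocytic cells and RNA in particles still attached to them cannot be told apart, nor can the time in culture and the particles. With 1 array a condition there was no spread between cultures and no test, so each value below is a description of these arrays, whose number limits the precision.

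Megakaryocytes are the large marrow cells that shed platelets. Platelets have no nucleus but carry RNA made in the megakaryocyte, with transcripts of granule chemokines, adhesion receptors and a platelet tubulin among the most characteristic. GATA1, with its cofactor FOG1 (gene ZFPM1), TAL1, GFI1B and NF-E2 are factors that drive such genes, and erythroid cells share most of them.

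No member stood higher with particles by as much as the fold used for counting. At 12 h, 0 of 61 member probe sets exceeded Pam3CSK4 alone by 2-fold or more, against 0.234% of all single-gene probe sets, and 0 were at least 2-fold lower, against 0.207%. At 24 h the counts were again 0 and 0, against 0.0292% and 0.0%. The limit of 1.5-fold gave 0 higher members at 12 h, where 1.57% of all probe sets passed, and 0 at 24 h, where 0.258% passed. One member probe set, that of NFE2, was at least 1.5-fold lower at 12 h, against 1.88% of all, and 0 were at 24 h, against 0.056%. The 12 h and 24 h comparisons share the Pam3CSK4 array, so a member that was low on that array is shifted the same way in both.

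By level, 20 of the 30 genes had a probe set that reached the median of all deposited values, 6.19 on the log2 scale, on at least 1 array, and 10 did not. Of the 61 probe sets, 33 stayed under it on every array, and 15 stayed under the 25th percentile, 4.73. It was reached by 45.9% of member probe sets and 58.2% of all, and the 75th percentile, 8.01, by 3.28% and 31.6%. A low value cannot be separated from background here, and RMA compresses differences at that level. The defining platelet markers fixed for this list, PF4, PPBP, ITGA2B, GP1BA, GP9, TUBB1, GP6 and TREML1, had 12 probe sets with values from 3.40 to 7.58. Their median difference was 0.10 at 12 h and 0.09 at 24 h.

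**Figure D1:**
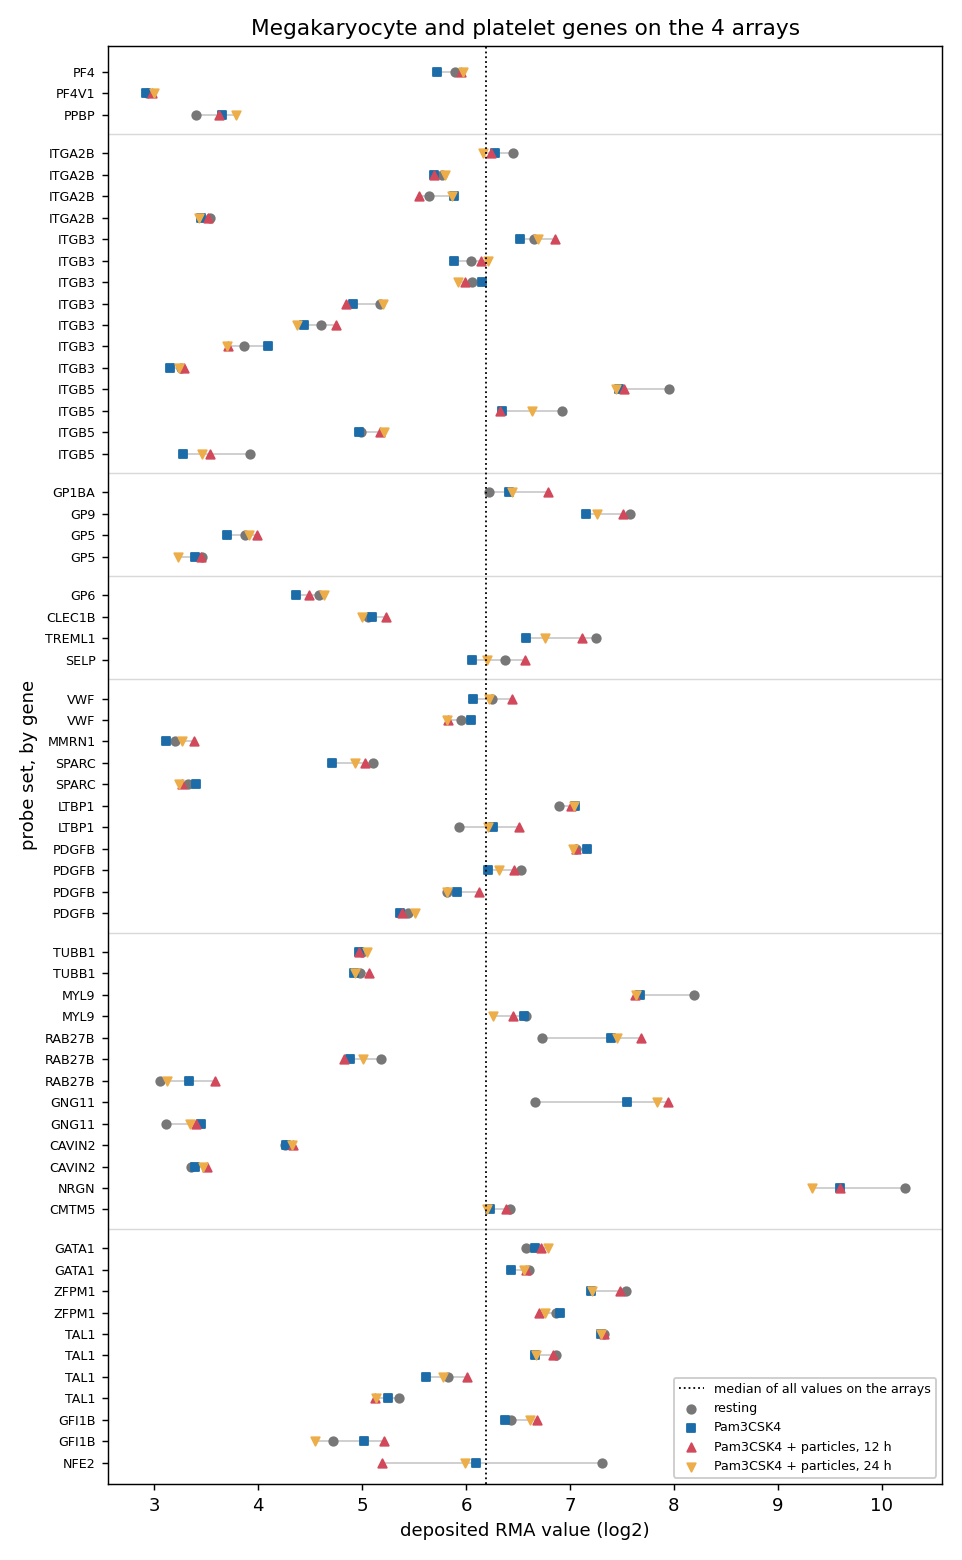
Deposited RMA values (log2, x axis) of the 61 member probe sets, 1 row each, grouped by role with the gene named at the left; symbols mark the 4 arrays and the dotted line the median of all values, 6.19. For nearly every probe set the symbols lie close together, and NFE2, at the bottom, spans the widest range, from 5.19 to 7.31. Levels of different probe sets are not comparable with each other.

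The granule chemokines, which make up much of a platelet's cargo, stayed under the median of all values on every array. PF4, platelet factor 4, read 5.89 in resting cells, 5.72 with Pam3CSK4, 5.95 at 12 h and 5.97 at 24 h. PPBP, the precursor of several platelet chemokines, read 3.40, 3.65, 3.62 and 3.79 in the same order. PF4V1, a close copy of PF4, stayed between 2.92 and 3.0. For PF4 the 4 arrays spanned 0.25 log2 and both particle arrays lay above the others by 0.06. The PF4 probe set has the suffix that marks possible binding of related transcripts, so PF4 and its copy may not be separated by it.

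The integrins include the platelet fibrinogen receptor, whose chains are ITGA2B and ITGB3, and ITGB5, a partner of the alpha v chain that many cells make. Of the 4 ITGA2B probe sets, the one that reached the median read 6.45, 6.28, 6.24 and 6.16 on the resting, Pam3CSK4, 12 h and 24 h arrays. Another differed by -0.33 at 12 h and -0.03 at 24 h, and a particle array was the highest on neither of them. On a further ITGA2B probe set the values were 5.77, 5.69, 5.69 and 5.80, with the 24 h array highest. The remaining one stayed between 3.43 and 3.54. The 12 h differences of the 7 ITGB3 probe sets ran from -0.38 to 0.34 and the 24 h differences from -0.39 to 0.33, which is as much disagreement within 1 gene as among all integrins. The ITGB3 probe set of highest mean read 6.65, 6.52, 6.86 and 6.69 from resting cells to 24 h. ITGB5 was lower with Pam3CSK4 on each of its 4 probe sets, by 0.02 to 0.64, where 43.9% of all probe sets were above 0. Its brightest read 7.95 in resting cells, 7.47 with Pam3CSK4, 7.52 at 12 h and 7.44 at 24 h. That resting value stood apart, while the 3 treated arrays were within 0.08 of each other.

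The receptor for von Willebrand factor is built from GP1BA, GP1BB, GP9 and GP5. GP1BA, which holds the binding site, read 6.22, 6.41, 6.79 and 6.44 from resting cells to 24 h, so the 12 h array was the highest and the 24 h array matched Pam3CSK4 to 0.02. GP9, needed to bring the complex to the surface, read 7.58, 7.15, 7.51 and 7.26, with the resting array highest. Both probe sets of GP5 stayed between 3.23 and 3.99. All 4 probe sets of the complex stood above Pam3CSK4 at 12 h, by 0.06 to 0.38, and all 4 were lower at 24 h than at 12 h, by 0.08 to 0.35. Over all single-gene probe sets, 50.0% were above 0 at 12 h and 47.6% at 24 h against 12 h. Among those of mean level up to 8, where these 4 lie, the shares were 56.8% and 40.4%. The fold limit was not reached by any probe set of the complex in either comparison.

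The group of receptors for collagen and podoplanin and proteins that granules bring to the surface held the largest positive member differences at 12 h, of TREML1 and SELP. TREML1, a receptor stored in platelet granules, read 7.25 in resting cells, 6.58 with Pam3CSK4, 7.12 at 12 h and 6.76 at 24 h. Its 12 h value was 1.46-fold above Pam3CSK4 but still under the resting value. SELP, the selectin by which activated platelets hold leukocytes, read 6.37, 6.06, 6.57 and 6.20, and its 12 h value was 1.42-fold above Pam3CSK4 and the highest of the 4. The collagen receptor GP6 stayed between 4.36 and 4.63, and the podoplanin receptor CLEC1B between 5.0 and 5.23. At 12 h GP6 differed by 0.12 and CLEC1B by 0.13, near the median of all members, 0.12. By 24 h TREML1 differed from Pam3CSK4 by 0.18 and SELP by 0.14.

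Among granule proteins and growth factors, VWF, the adhesive protein of platelets and endothelium, gave opposite signs on its 2 probe sets, 0.37 and -0.22 at 12 h. The probe set of higher mean read 6.25 in resting cells, 6.07 with Pam3CSK4, 6.44 at 12 h and 6.22 at 24 h. LTBP1, which binds latent TGF-beta, read 6.89, 7.05, 7.01 and 7.04 on its brighter probe set and 5.93, 6.26, 6.51 and 6.21 on the other. PDGFB, a platelet-derived growth factor chain, ranged from 5.36 to 7.16 over 4 probe sets, with differences between -0.10 and 0.25 at 12 h and between -0.13 and 0.15 at 24 h. MMRN1, the factor V carrier, stayed between 3.11 and 3.38, and SPARC, a matrix protein stored in alpha granules, between 3.24 and 5.10. No member of this group differed by 1.5-fold in any comparison with the Pam3CSK4 array.

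Genes of the cytoskeleton, membrane and signalling held the members that differed most with Pam3CSK4 in the upward direction. GNG11, a G-protein gamma subunit abundant in platelets, read 6.66 in resting cells, 7.55 with Pam3CSK4, 7.94 at 12 h and 7.84 at 24 h. It was 1.86-fold higher with Pam3CSK4 than in resting cells and a further 1.31-fold higher at 12 h, and both particle arrays lay above the other arrays by 0.28. Its other probe set stayed between 3.11 and 3.45, and the particle arrays were not the highest there. RAB27B, a small GTPase of platelet dense granules, read 6.73, 7.39, 7.68 and 7.45, 1.58-fold higher with Pam3CSK4. The other RAB27B probe sets, at 3.05 to 5.18, differed with Pam3CSK4 by 0.28 and -0.30.

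In the same group NRGN and MYL9 were lower on the treated arrays. NRGN, a calmodulin-binding protein of neurons and platelets, read 10.22 in resting cells, 9.60 with Pam3CSK4, 9.60 at 12 h and 9.33 at 24 h. MYL9, a myosin light chain, read 8.19, 7.67, 7.63 and 7.64 on the brighter of 2 probe sets, so its resting array stood apart from 3 nearly equal ones. CMTM5, a membrane protein gene of the chemokine-like factor family, stayed between 6.20 and 6.42. TUBB1, the tubulin of the platelet's marginal band, stayed between 4.92 and 5.07 over 2 probe sets, and CAVIN2, a caveolar protein also found in platelets, between 3.35 and 4.33.

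NFE2 was the member with the widest movement. This subunit of the factor NF-E2 is needed for platelet release and also made in myeloid cells. NFE2 is read by 1 probe set, of the kind (suffix _s_at) that can bind several transcripts. That probe set stood at 7.31 in resting cells, 6.10 with Pam3CSK4, 5.19 at 12 h and 5.99 at 24 h. NFE2 was 2.31-fold lower with Pam3CSK4 than in resting cells, the 1 member probe set of 61 at least 2-fold lower there, against 0.939% of all. The 12 h array was 1.89-fold under Pam3CSK4, and the 24 h array, 1.75-fold above the 12 h array, was within 0.11 log2 of Pam3CSK4. The treated values lie under the median of all values, so the size of the 12 h difference depends on background. No second probe set was at hand to check it.

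The other transcription factors of the list moved little. GATA1, the master factor of megakaryocytes and erythroid cells, read 6.58, 6.66, 6.72 and 6.79 on the probe set of higher mean and 6.61, 6.43, 6.58 and 6.56 on the other. ZFPM1 read 7.54, 7.20, 7.48 and 7.21 on its brighter probe set, and differed with opposite sign on its other one at 12 h, by 0.28 and -0.20. TAL1, a blood-stem-cell factor, had 4 probe sets with differences between -0.14 and 0.40 at 12 h and between -0.12 and 0.17 at 24 h, and its brightest stayed between 7.30 and 7.33. GFI1B, a repressor in erythroid and megakaryocytic cells, read 6.43, 6.37, 6.68 and 6.62 on its brighter probe set. Its other probe set, at 4.72, 5.02, 5.21 and 4.55, was the lowest at 24 h, 0.47 under Pam3CSK4.

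**Figure D2:**
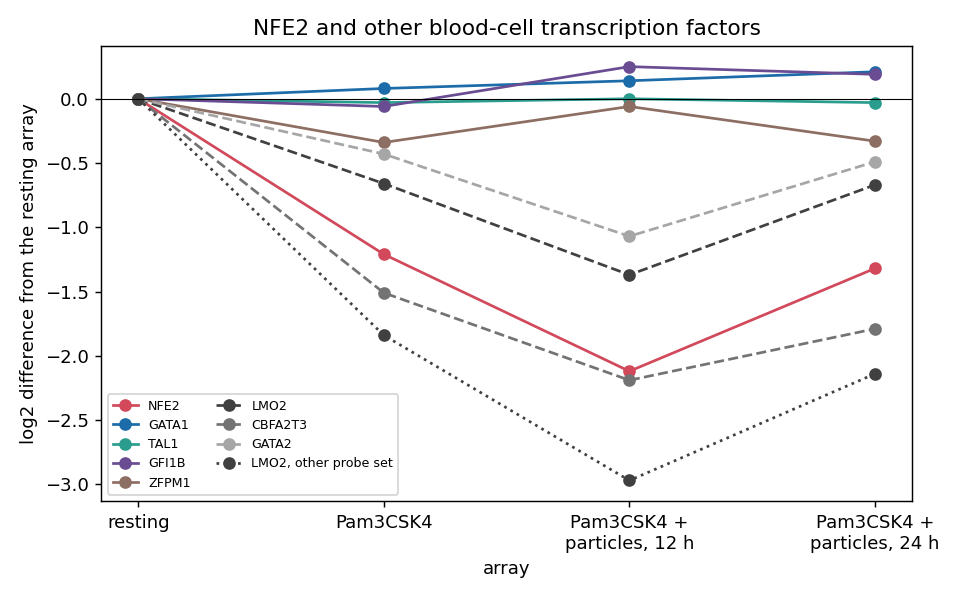
Log2 difference from the resting array (y axis) on the 4 arrays (x axis) for NFE2 and 4 other member transcription factors (solid lines, probe set of highest mean) and for LMO2, CBFA2T3 and GATA2 from the wider list (dashed, with a second LMO2 probe set dotted). NFE2, LMO2, CBFA2T3 and GATA2 were lowest at 12 h, while GATA1, TAL1, GFI1B and ZFPM1 stayed within 0.34 of resting.

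The further genes of megakaryocyte transcription and thrombopoietin signalling, 11 with 32 probe sets, held others that were lowest at 12 h. LMO2, the bridging protein between TAL1 and GATA factors, read 12.42 in resting cells, 11.76 with Pam3CSK4, 11.05 at 12 h and 11.75 at 24 h. Its other probe set read 9.53, 7.69, 6.56 and 7.39, and was the 1 of 32 at least 2-fold lower at 12 h, against 0.207% of all. CBFA2T3, a corepressor in the same complexes, read 9.49, 7.98, 7.30 and 7.70. GATA2 read 9.0, 8.57, 7.93 and 8.51 on its brightest probe set, while its other probe sets differed by 0.11 and 0.03 at 12 h. Of the 32, 0 were at least 2-fold higher and 2 lower with Pam3CSK4, against 2.38% and 0.939% of all. At 12 h, 0 were higher, against 0.234%, and at 24 h 0 differed by 2-fold, against 0.0292% higher and 0.0% lower. Their median difference from Pam3CSK4 was 0.03 at 12 h and -0.02 at 24 h. The course itself (at least 1.5-fold lower with Pam3CSK4, again at 12 h, then 1.5-fold higher at 24 h than at 12 h) was written down after the values of NFE2 were seen. It was met by 1 of 61 member probe sets, by 2 of these 32, both of LMO2, and by 137 of 41091 in all, 0.333%. CBFA2T3 and GATA2 did not meet it. Among the lists taken up below, 2 of 70 platelet receptor and signalling probe sets met the course, both of RASGRP2. So did 1 of 55 for granule cargo and secretion, of SYTL4, and 1 of 10 for monocyte markers, of MNDA. The count was 0 of 55 for the platelet cytoskeleton, 0 of 28 for erythroid markers and 0 of 11 for endothelial markers.

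Monocyte markers were set beside these factors. At 12 h the 10 probe sets of 8 monocyte markers had a median difference of -0.35. CD14 and MNDA were at least 2-fold lower, at -1.18 and -1.16, against 0.207% of all. Of the 10, 2 were above 0, against 50.0% of all, with CSF1R at 0.33. With Pam3CSK4 against resting, CD14 differed by 2.40 and MNDA by -1.14. At 24 h the markers' median was 0.05 and 0 were 2-fold different, against 0.0292% of all higher and 0.0% lower. As a check of the labelled cell type, 9 of the 10 reached the median of all values on each array, with LYZ, lysozyme, at 12.98 to 13.81 on its brighter probe set. FCGR1A, an Fc receptor, stayed under it at 4.41 to 4.94, and CD14 read 6.52 in resting cells. The part of the marker shift at 12 h in the NFE2 values was not tested.

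RefSeq promoter windows were searched for motifs of these factors, to show what sequence stands before the genes. Windows of 300 bases (250 before and 50 after the gene start, assembly GRCh38.p14) were found for 24 of 31 members, in 33 entries, and not for PF4, ITGB3, GP1BA, VWF, PDGFB, MYL9 or NFE2. Of 7 motifs searched on both strands, the GATA-type letters AGATAAG were in 4 of 33 member entries, 12.1%, and in 2.68% of 35116 entries of the genome. The shorter AGATAA, which it contains, was in 12.1% and 10.3%, and GATAA in 39.4% and 22.7%. CAGATAAG, which extends it by a base, was in 3.03% and 0.686%. The ETS-type ACTTCCT was in 18.2% and 8.24%, TTCCTG in 42.4% and 28.4%, and the NF-E2-type GCTGAGTCA in 0 member entries and 0.561%. The motifs were picked with the member list known, and a match is a description of letters. Stretches around the matches before the gene start follow, on the strand of the gene, with the match in capitals (CTTATCT is the same motif on the opposite strand).
PPBP, chr4:73988379-73988429, minus strand: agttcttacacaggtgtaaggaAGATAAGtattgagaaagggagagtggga
GP6, chr19:55038413-55038463, minus strand: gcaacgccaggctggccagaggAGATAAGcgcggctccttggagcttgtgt
CLEC1B, chr12:9999326-9999371, minus strand: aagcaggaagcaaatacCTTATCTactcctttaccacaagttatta
TAL1, chr1:47232343-47232393, minus strand: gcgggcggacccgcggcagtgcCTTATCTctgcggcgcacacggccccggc
The probe sets of PPBP, GP6 and CLEC1B stayed under the median of all values on every array, while 2 of 4 TAL1 probe sets reached it.

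The members as a whole were slightly above Pam3CSK4 at 12 h. The median difference over the 61 probe sets was 0.12 log2, against 0.00 over all single-gene probe sets, and 41 of 61 differences were above 0, 67.2%, against 50.0% of all. Level moved with this result. Over all probe sets, those of mean level up to 8 had a median of 0.04 and were above 0 in 56.8% of cases, and those above 8 had a median of -0.09. The members had 60 of 61 probe sets in the lower range, where their own median was 0.13. With cyclic loess, which evens out such a trend, the members' median was 0.08 against -0.01 for all, with 39 above 0. At 24 h the members' median was 0.05 against -0.01, with 36 of 61 above 0, 59.0%, against 46.9%.

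**Figure D3:**
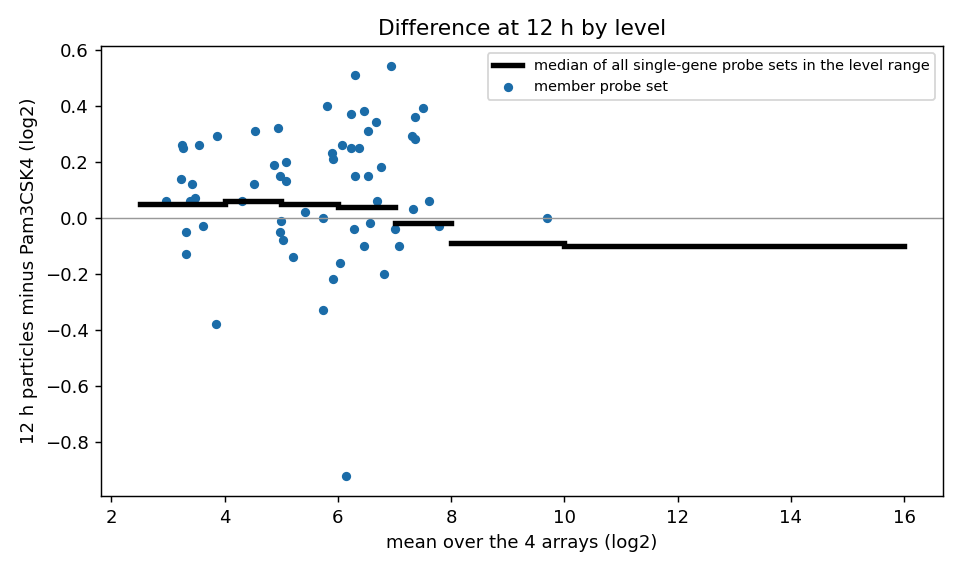
Difference between the 12 h and Pam3CSK4 arrays (log2, y axis) against the mean over the 4 arrays (log2, x axis) for each member probe set (points), with the median of all single-gene probe sets in 7 level ranges (bars). The bars run from 0.05 at the lowest levels to -0.10 at the highest, and member points scatter on both sides of them.

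Probe sets of 1 gene disagreed by about the size of these differences. For the 17 members with several probe sets, the range of the 12 h difference within a gene had a median of 0.34 log2, and 12 of the 17 had probe sets of both signs. At 24 h the median range was 0.29, and again 12 of 17 had both signs. The same over all genes with several probe sets is not given here, so these counts describe the members only. The ranges pool probe sets of all levels, also those near background. The 12 h differences of SELP, GP1BA and GNG11, at 0.51, 0.38 and 0.39, lay between the median range at 12 h and the widest, 0.72. A range and a single difference are unlike measures. SELP and GP1BA have 1 probe set each, so disagreement could not be measured for them. The other GNG11 probe set differed by -0.05.

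A count added after the data were seen took the probe sets on which both particle arrays lay above both arrays without particles. It was met by 14 of 61 member probe sets, 23.0%, against 14.4% of all, and the opposite order by 11 of 61, 18.0%, against 19.1%. The gap was 0.28 log2 for 1 GNG11 probe set, 0.19 for 1 of GFI1B, 0.18 for 1 of ITGB5 and 0.09 or less for the other 11. The other probe sets of GNG11, GFI1B and ITGB5 did not meet the count. Their gaps were -0.10 for GNG11, -0.47 for GFI1B and -0.45 to -0.59 for ITGB5. Gamma globin, an erythroid transcript, showed what a large gap looks like on these arrays. On 3 probe sets shared by HBG1 and HBG2 the gaps were 2.35 to 4.04, with differences of 2.62 to 4.04 at 12 h and 3.38 to 5.0 at 24 h. Alpha globin, on 6 probe sets shared by HBA1 and HBA2, also lay higher on both particle arrays than on the others, on 6 of 6, with gaps of 0.05 to 1.14. On 1 of them the difference passed 2-fold, with 1.26 at 12 h and 1.70 at 24 h. The erythroid markers with probe sets of their own, 28 of 14 genes, had a median of 0.13 at 12 h and -0.02 at 24 h. Of these 28, 1 was at least 2-fold higher at 24 h, against 0.0292% of all. It was a probe set of HBE1, which read 5.42, 5.45, 6.30 and 7.5. Another HBE1 probe set read 4.18, 3.97, 4.16 and 3.98 in the same order.

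**Figure D4:**
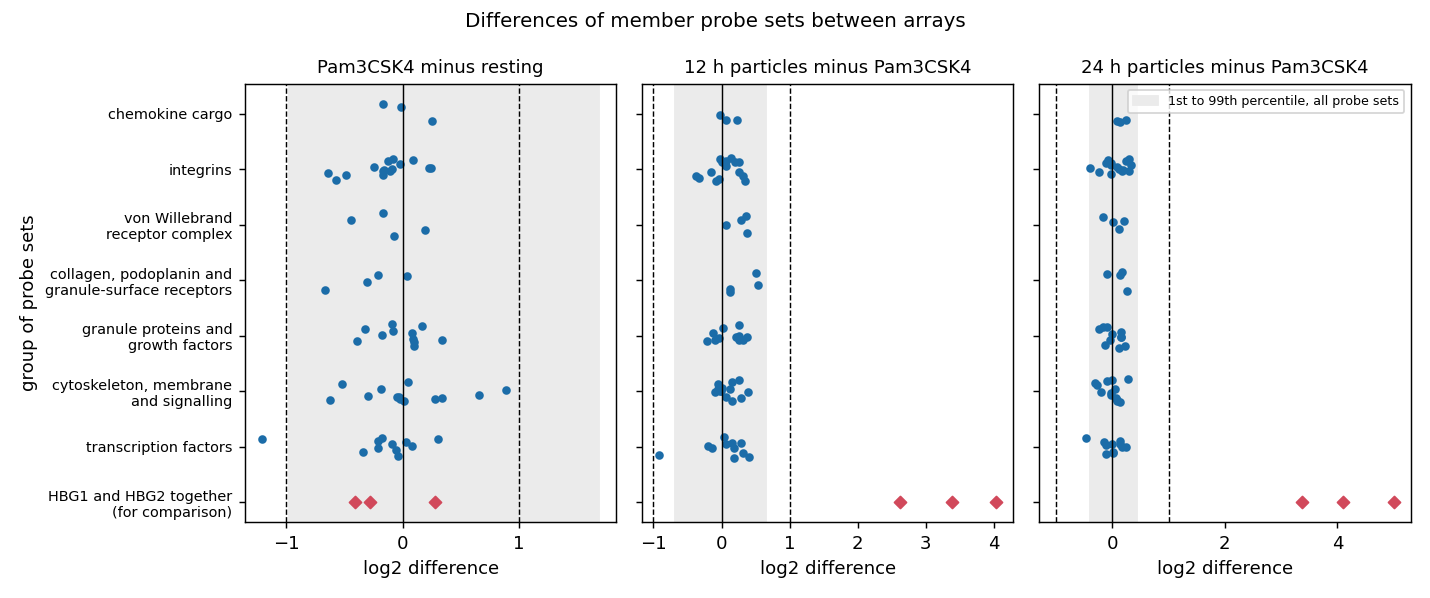
Log2 differences (x axis) of member probe sets, by role (y axis), for Pam3CSK4 minus resting and for the 12 h and 24 h particle arrays minus Pam3CSK4; dashed lines mark 2-fold, grey bands the 1st to 99th percentile of all single-gene probe sets, and diamonds the 3 gamma globin probe sets. Member points stay inside the 2-fold lines in both particle panels, and the diamonds lie at 2.62 or more.

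Between 12 h and 24 h of co-culture 0 of 61 member probe sets differed by 2-fold, against 0.214% of all higher and 0.124% lower at 24 h. The limit of 1.5-fold was passed by NFE2, higher at 24 h by 0.81, where 2.14% of all passed, and by 1 GFI1B probe set, lower by 0.67, where 1.27% passed. The median difference was -0.07 against -0.01 for all, and 19 of 61 were above 0, against 47.6% of all.

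With Pam3CSK4 alone, the members had a median difference of -0.08 from resting cells, against -0.03 for all, and 21 of 61 were above 0, against 43.9%. None of 61 was at least 2-fold higher, against 2.38% of all probe sets. At 1.5-fold, 2 were higher, of GNG11 and RAB27B, against 4.92% of all, and 4 were lower, of NFE2, TREML1, ITGB5 and NRGN, against 3.59%. Control probe sets at the ends of the GAPDH and ACTB transcripts tell how intact the RNA was. The GAPDH 3' set exceeded the 5' set by 2.16 log2 in resting cells, 0.59 with Pam3CSK4, 0.92 at 12 h and 0.70 at 24 h. For ACTB the excess was 3.41, 2.91, 3.17 and 2.90 in the same order. Both differed along with the treatment, ACTB by less, and their part in the members' differences was not tested.

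Other platelet genes, which monocytes largely express as well, passed 2-fold more often with Pam3CSK4 than with particles, as did the probe sets as a whole. Of 70 probe sets of 28 platelet receptor and signalling genes, 11 were at least 2-fold higher with Pam3CSK4, against 2.38% of all, and 4 lower, against 0.939%. The scavenger receptor CD36 differed by 2.64 and the kinase LYN by 2.39 on the probe sets that differed most, and FERMT3, an activator of integrins, by 1.71. At 12 h, 0 of the 70 were at least 2-fold higher, against 0.234% of all, and 2 were lower, against 0.207%. Both were of RASGRP2, the exchange factor that switches on Rap1 in platelets. RASGRP2 read 10.57, 8.27, 7.13 and 7.91 on its brightest probe set and differed by -0.05 and -0.52 at 12 h on the 2 probe sets of low level. JAM3, a junction protein, differed by 0.59 at 12 h on 1 of 3 probe sets, from 3.43. At 24 h 0 of 70 differed by 2-fold, against 0.0292% of all higher and 0.0% lower.

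Of 55 probe sets of 22 genes for granule cargo, secretion and eicosanoid enzymes, 13 were at least 2-fold higher with Pam3CSK4 and 1 lower, against 2.38% and 0.939% of all. At 12 h, 1 was higher and 0 were lower, against 0.234% and 0.207%. That probe set was of THBS1, thrombospondin, a protein of alpha granules that activated macrophages also make. It read 3.32 in resting cells, 7.48 with Pam3CSK4, 8.79 at 12 h and 7.83 at 24 h, while the 7 THBS1 probe sets together differed by -0.01 to 1.32 at 12 h. The chemokine CCL5 differed by 0.54 to 0.68 over 3 probe sets at 12 h, from Pam3CSK4 values of 11.69 to 12.42, and by 0.01 to 0.32 at 24 h. NBEAL2, needed to form alpha granules, differed by -0.72 at 12 h on its brighter probe set. With Pam3CSK4, PDGFA differed by 2.04 and 1.45, and F13A1, the clotting factor XIII subunit of platelets and monocytes, by -1.83.

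The 55 probe sets of 17 platelet cytoskeleton genes had 3 at least 2-fold higher with Pam3CSK4, of PLEK and TPM4, against 2.38% of all, and 1 lower, of TUBA4A, at -1.19, against 0.939%. PLEK, pleckstrin, a kinase substrate of platelets and leukocytes, differed by 1.12 and 1.11. With particles, 0 of 55 differed by 2-fold at 12 h, against 0.234% of all higher and 0.207% lower. The count was also 0 at 24 h, against 0.0292% higher and 0.0% lower. At 12 h ACTN1 differed by -0.65, TPM4 by -0.60 and PDLIM1 by -0.53 on the probe sets that differed most, and the list's median was -0.05. At 24 h that median was -0.02.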

How the data were processed

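Per the labels' protocols, biotin-labelled RNA of 4 THP-1 cultures was hybridised to Affymetrix arrays. The deposited table holds log2 values for 54675 probe sets, made by the authors with RMA in affy 1.28.1, per the submitters' processing notes. The values ran from 2.54 to 15.22, and sorted columns differed by at most 0.11. RMA gives the arrays a common distribution, so a global change in RNA content cannot be seen. Genome build and detection calls are not given in the sources used here.

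After 62 control probe sets were set aside, a platform annotation named 1 gene for 41091 probe sets, several for 1801 and none for 11721. Of the 41091, 41037 gene identifiers were found in RefSeq (GRCh38.p14), which updated 0 symbols. All member probe sets were used with no filter on level, and a comparison is the difference of 2 log2 values, counted at 2-fold. The members, lists, thresholds and comparisons were chosen with earlier results of these data known. Array values were planned for members with a probe set that came up to the median or differed 1.5-fold from the Pam3CSK4 array. CMTM5, PDGFB and TAL1 came under this rule but are given by range. PF4 and PPBP did not, but are given array by array. For some members only 1 of several probe sets is given so. Of each further platelet list, up to 3 genes were named for the size of a particle difference and up to 4 for Pam3CSK4. The labels' description of 12 h and 24 h was used, where titles carry 13 and 25. Alternatives were filters at the median and 75th percentile, 1 probe set or a mean per gene, omission of probe sets of suffix _x_at or _s_at, cyclic loess (limma 3.58.1, R 4.3.3, 3 iterations), and limits of 1.5-fold and 3-fold. Python 3.11.15, numpy 2.4.6, pandas 2.3.3 and matplotlib 3.10.9 were used, and the counting was tested on simulated arrays.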

Additional observations from a re-analysis of the deposited data

How the results depend on the processing

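The count of 0 member probe sets at least 2-fold higher at 12 h and at 24 h was the same with cyclic loess and at 1.5-fold. The highest member differences were 0.54 at 12 h and 0.33 at 24 h. Both filters, both ways of taking 1 value a gene and omission of _x_at and _s_at probe sets could therefore only return 0. The same holds for the 3-fold limit, so none of these is a check of that count. With Pam3CSK4 against resting, the 1 lower probe set, of NFE2, became 0 without _x_at and _s_at probe sets, 0 at 3-fold and 0 with the 75th percentile filter, and 4 at 1.5-fold, where 2 were higher. At 1.5-fold, 1 was lower at 12 h, and 1 was higher and 1 lower at 24 h than at 12 h. The 75th percentile filter left 2 probe sets, with a median of -0.57 for Pam3CSK4, -0.02 for 12 h and -0.15 for 24 h. The count of the course of NFE2 was 0 with that filter and 0 when the _x_at and _s_at probe sets were left out, since both remove its probe set. Particle arrays above both others were counted 7 times of 28 with the median filter, 7 of 30 with probe sets averaged and 0 of 2 with the 75th percentile filter. That count was 11 of 30 with 1 probe set a gene, 10 of 33 without suffixed probe sets and 17 of 61 with cyclic loess. All of these shares except that of the 75th percentile filter were above the 14 of 61 reported. The opposite order was counted 6 times of 28 with the median filter and 4 of 30 with probe sets averaged. With the 75th percentile filter it was 2 of 2, and with 1 probe set a gene 4 of 30. It was 8 of 33 without the suffixed probe sets and 10 of 61 with cyclic loess. Shares over all probe sets under these settings are not given here, so no excess of members can be read from these counts. With cyclic loess NFE2 differed by -1.17 with Pam3CSK4 and -0.97 at 12 h. No paired analysis was possible because each condition has 1 array. Signal over background was judged by level alone, which limits every statement on members under the median.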

Other observations

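Endothelial markers, which platelets share in part, were set beside the members. The 11 probe sets of 5 genes had a median difference of 0.32 log2 at 12 h, with 10 of 11 above 0, against 50.0% of all. At 24 h the median was -0.01, with 5 above 0, against 46.9% of all. PECAM1, an adhesion molecule of platelets, monocytes and endothelium, accounted for 5 of the 11 and was higher at 12 h on each, by 0.34 to 0.56. Without it the other 6 had a median of 0.16 at 12 h, from -0.09 to 0.32, near the 0.12 of the members. On its brightest probe set PECAM1 read 11.26 in resting cells, 11.41 with Pam3CSK4, 11.97 at 12 h and 11.48 at 24 h. None of the 11 differed by 1.5-fold at 12 h, against 1.57% of all higher and 1.88% lower. None did at 24 h, against 0.258% and 0.056%.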
